A study of Mus musculus with 8 samples.

Results

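The SLC25 family is the set of mitochondrial carriers, membrane proteins most of which lie in the inner mitochondrial membrane. Most move nucleotides, phosphate, carboxylic acids, amino acids, cofactors or iron between the cytosol and the matrix. All genes with a symbol of the form Slc25a followed by a number and at least 1 protein-coding transcript were taken, which gave 47 genes of 48440 listed and of 21989 with a protein-coding transcript. The rule used symbols and transcript types and no measured value. Carrier genes with other symbols, such as Ucp2, Mtch1 and Mtch2, are therefore outside the 47 and are described as relatives below. Of the 47 genes, 46 had enough counts for a test, and the remaining gene, Slc25a54, had 0 counts in all 8 libraries, which allows up to 3 counts in each.

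A carrier of this family is built from repeated units with a signature motif, and most members swap a substrate on one side of the membrane for another on the opposite side. The ADP/ATP carriers and the phosphate carrier supply the ATP synthase with its substrates and export its product. An oocyte holds a very large store of mitochondria with little cristae, and it draws on pyruvate oxidation for ATP, whereas pluripotent cells in culture lean more on glycolysis. Slc25a31, also called Ant4, is known as the ADP/ATP carrier of germ cells.

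RNA was sequenced in 8 mouse libraries, 2 in each of 4 groups. GV oocytes are arrested in prophase of meiosis with an intact nucleus (the germinal vesicle), and MII oocytes are arrested at metaphase of the second meiotic division. Per the labels, the oocyte donors had received PMSG (5 units) 48 h earlier, and GV oocytes were held in medium with 2 µM milrinone, a drug that keeps meiosis from resuming. The MII labels repeat that text and give no maturation step. ESC are embryonic stem cells kept in 15% serum with LIF, PD0325901 and CHIR99021. EpiC are in vitro epiblast cells, made from ESC by plating for 24 h and withdrawing LIF and the inhibitors for about 56 h. The sources used here state no genetic change, strain or age, no number of oocytes per library and no origin of the replicates in different animals or cultures. P-values therefore measure only the spread between these samples, which may be technical.

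Total estimated counts ran from 47463546 to 196788239 per library, and replicate 2 was the deeper library in every group. The cell labels were checked on marker genes. The 10 oocyte markers, zona pellucida genes among them, summed to between 24500 and 34600 TPM in the oocyte libraries and to 11.2 TPM or less in ESC and EpiC. TPM is each transcript's share of all transcripts after division by length, scaled to the same total in every library. The 10 markers of the naive stem cell state summed to 2550 and 1990 TPM in ESC and to 342 and 178 TPM in EpiC, while 9 epiblast markers summed to 83.5 and 51.6 TPM in ESC and to 720 and 277 TPM in EpiC. The 10 cumulus and granulosa cell markers summed to 32.4 and 165 TPM in GV, 51.1 and 61.8 in MII, and between 6.89 and 35 TPM in ESC and EpiC, so GV replicate 2 held the most. Single genes made up most of the larger sums, Cyp19a1 in MII (47.4 and 44.5 TPM) and Inha in GV replicate 2 (104.5 TPM). Other markers were also higher in GV replicate 2 than in GV replicate 1. Fst was at 17.9 against 0.699 TPM and Inhba at 12.45 against 0.446 TPM. Fshr, Amh, Cyp11a1, Foxl2 and Ptx3 went the same way, while Cyp19a1 and Has2 were lower in replicate 2. Gm42418, a gene model that collects ribosomal RNA reads, took 14.7% of counts in ESC replicate 2 and 22.7% in EpiC replicate 2 and at most 3.03% elsewhere, which lowers every TPM in those 2 libraries.

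The log2 fold changes below come from an edgeR quasi-likelihood test on counts scaled by TMM, which sets libraries to the bulk of their genes, and a gene is called at an adjusted p under 0.05 over 25045 genes. They are relative to other mRNAs, and fewer cells of a type and less RNA per cell cannot be told apart in such bulk libraries. The scale matters for MII. Among genes with a mean of at least 5 TPM, the median shift of the log2 fold change on going from TMM to log2(TPM + 1) was −1.07 for MII against GV. It was −1.31 for the MII to EpiC comparison and −0.31 for the GV to ESC comparison. Of all called genes, 43.9% were higher in MII than in GV by TMM and 22.8% by log2(TPM + 1). For MII against EpiC these shares were 41.8% and 29.1%. TPM values are therefore printed beside the fold changes of the members the results turn on. In MII against GV the mean TPM went down where the TMM value was above 0 for Slc25a3, Slc25a11, Slc25a12, Slc25a13, Slc25a17, Slc25a26, Slc25a31, Slc25a39, Slc25a43 and Slc25a51, of which Slc25a12 and Slc25a51 were called higher. In MII against EpiC the same held for Slc25a11, Slc25a12, Slc25a13, Slc25a25, Slc25a33, Slc25a40 and Slc25a53, of which Slc25a12 and Slc25a40 were called higher.

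Summed over all listed transcripts of the 47 genes, noncoding ones included, TPM came to 1140 and 1202 in the GV libraries and 870 and 875 in MII. The sums were 2562 and 1759 TPM in ESC and 2479 and 1481 TPM in EpiC. On these sums, every oocyte library lay below every ESC and EpiC library. The ADP/ATP carriers and the phosphate carrier together took 29.9% and 29.3% of that sum in GV, 17.2% and 16.3% in MII, 58.7% and 48% in ESC, with 66.8% and 45.8% in EpiC. The most abundant member was Slc25a5 in both GV libraries and Slc25a15 in both MII libraries. In ESC it was Slc25a5 in replicate 1 and Slc25a3 in replicate 2, and in EpiC it was Slc25a5 in replicate 1 and Slc25a20 in replicate 2. In that last library, 317 TPM of Slc25a20 lay on Slc25a20-003, a transcript annotated with a retained intron. The coding transcript held 7.43 TPM there, 2.29% of the gene's TPM.

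**Figure D1:**
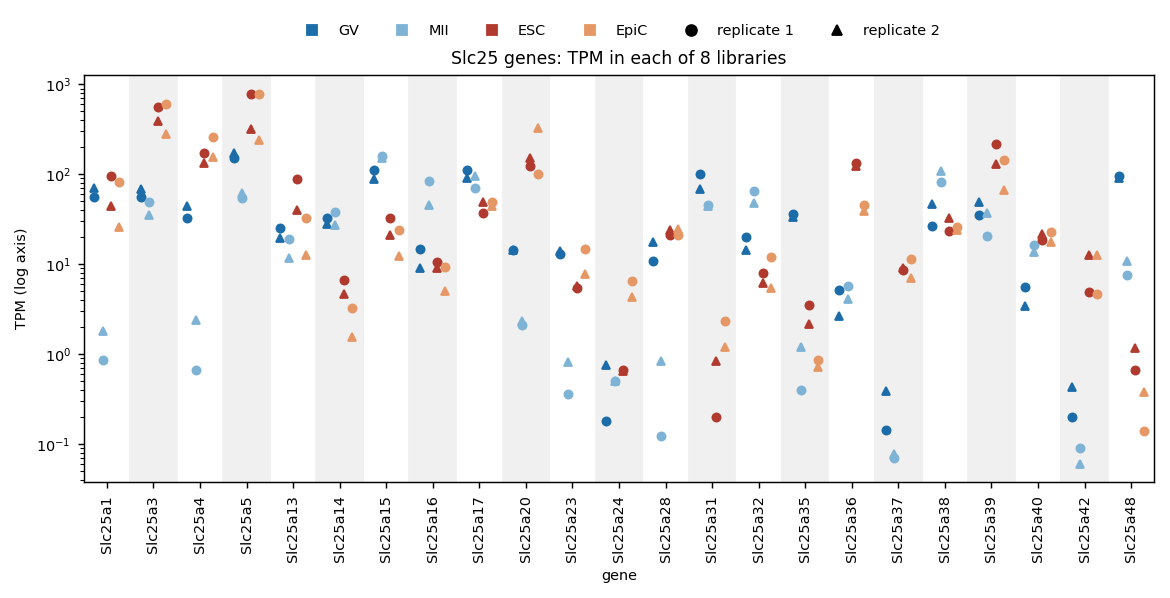
TPM (log axis) of 23 Slc25 genes in each of the 8 libraries. Colours mark the 4 groups, circles replicate 1 and triangles replicate 2. Slc25a31 and Slc25a48 lie above 44 and 7 TPM in every oocyte library and below 3 TPM in every ESC and EpiC library, while Slc25a36, Slc25a37 and Slc25a42 show the opposite order.

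The 3 ADP/ATP carriers exchange matrix ATP for cytosolic ADP, and the RNA levels of their genes differed in pattern over the 4 groups. Slc25a31 (ENSMUSG00000069041.8, GRCm38 chromosome 3, 40708855 to 40726096, plus strand) measured 99.6 and 68.3 TPM in GV and 45.05 and 44.1 TPM in MII. In ESC it measured 0.199 and 0.825 TPM, and in EpiC 2.34 and 1.21 TPM. The oocyte and cultured cell libraries did not overlap. The log2 fold change was 7.57 ± 0.73 (SE; edgeR adjusted p = 4.98e-05) for GV against ESC and 6.15 ± 0.69 (adjusted p = 6.73e-05) for MII against EpiC. These comparisons share no library, although all 8 libraries enter the estimate of spread. Both calls held in all 18 alternative settings. MII against GV gave 0.25 ± 0.55 (adjusted p = 0.752), although both MII values in TPM lay below both GV values.

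Slc25a4, or Ant1 (ENSMUSG00000031633.4, chromosome 8, 46206797 to 46211284, minus strand), known as the carrier of heart and muscle, measured 32.4 and 43.9 TPM in GV and 0.667 and 2.4 TPM in MII. It measured 172 and 134 TPM in ESC and 263 and 158 TPM in EpiC. MII stood apart from every other group, at a mean of 1.53 ± 1.22 TPM (SD, n = 2). The log2 fold change was −3.44 ± 0.6 (adjusted p = 0.00189) for MII against GV, −5.51 ± 0.67 (adjusted p = 0.000103) for MII against EpiC and −1.62 ± 0.56 (adjusted p = 0.0322) for GV against ESC. The first 2 held in all 18 settings, and the GV against ESC call was lost without GV replicate 1 (−1.08), GV replicate 2 (−1.91), ESC replicate 1 (−1.44) or ESC replicate 2 (−1.78).

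Slc25a5, or Ant2 (ENSMUSG00000016319.3, chromosome X, 36795651 to 36798807, plus strand), the carrier of proliferating cells, measured 152 and 172 TPM in GV, 55.1 and 61.2 TPM in MII, 775 and 319 TPM in ESC, with 793 and 240 TPM in EpiC. It was lower in GV than in ESC by −1.4 ± 0.53 (adjusted p = 0.045) and in MII than in EpiC by −1.6 ± 0.53 (adjusted p = 0.0244). The call against ESC was lost without GV replicate 1 (−0.98), GV replicate 2 (−1.54), MII replicate 1 (−1.12), MII replicate 2 (−1.4) or ESC replicate 1 (−0.69), with RLE scaling (−1.48) and by limma on log2(TPM + 1) (−1.61). The call against EpiC was lost without GV replicate 1 (−1.42), MII replicate 1 (−1.29), MII replicate 2 (−1.74) or EpiC replicate 1 (−0.74), and with RLE scaling (−1.45). A listed pseudogene of it, Slc25a5-ps, reached at most 0.214 TPM, and reads shared with other copies cannot be told apart in these tables.

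Shares among the 3 ADP/ATP carriers do not depend on how libraries are scaled. Slc25a31 made up 35% and 24.1% of their summed TPM in GV and 44.7% and 40.9% in MII. It made up 0.021% and 0.182% in ESC and 0.221% and 0.303% in EpiC. Slc25a4 made up 11.4% and 15.5% in GV, 0.661% and 2.23% in MII, 18.2% and 29.5% in ESC, with 24.8% and 39.6% in EpiC. Slc25a5 was the largest in every library, at 53.6% to 81.8%. These shares were not tested.

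**Figure D2:**
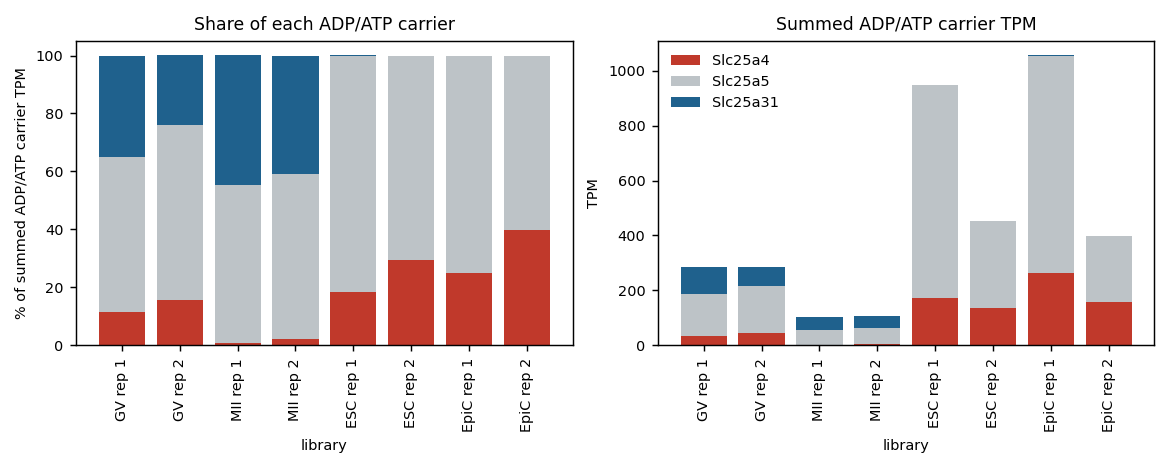
Stacked bars of the 3 ADP/ATP carriers in each library, as % of their summed TPM (left) and as TPM (right). Slc25a31 fills 24.1% to 44.7% of the bar in oocytes and at most 0.303% in ESC and EpiC, and Slc25a4 is nearly absent from the MII bars.

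The window at the start of Slc25a31 is printed because that gene had the widest gap between oocytes and ESC, beside the window of Slc25a48, the next member by fold, which is described with its group below. Each sequence is the RefSeq promoter of build GRCm38.p6, plus strand, from 250 bases before to 50 after the gene's start. Capitals mark CpG pairs.
Slc25a31, chr3:40708621-40708920: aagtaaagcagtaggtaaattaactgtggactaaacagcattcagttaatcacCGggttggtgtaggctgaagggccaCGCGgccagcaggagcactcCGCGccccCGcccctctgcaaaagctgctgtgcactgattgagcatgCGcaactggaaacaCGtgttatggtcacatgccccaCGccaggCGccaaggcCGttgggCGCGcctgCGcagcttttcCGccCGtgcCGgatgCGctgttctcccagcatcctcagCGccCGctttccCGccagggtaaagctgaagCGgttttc
Slc25a48, chr13:56438105-56438404: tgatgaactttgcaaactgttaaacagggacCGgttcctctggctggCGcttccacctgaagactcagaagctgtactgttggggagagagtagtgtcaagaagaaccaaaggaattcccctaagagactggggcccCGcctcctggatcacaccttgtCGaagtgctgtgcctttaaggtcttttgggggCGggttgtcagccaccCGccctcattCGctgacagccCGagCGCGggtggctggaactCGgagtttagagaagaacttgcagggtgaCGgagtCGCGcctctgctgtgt
The window of Slc25a31 holds 22 CpG pairs and that of Slc25a48 holds 14, beside 25 for Slc25a4 and 18 for Slc25a5. The median over 27025 RefSeq windows of that length was 7, and over the 36 members with a window it was 17. The E2F-type letters TTCCCGC, searched on both strands, are in the window of Slc25a31 and of Slc25a11, 5.56% of the 36 members against 4.66% of all windows. The E-box CACGTG is in the window of Slc25a31, not in that of Slc25a48, and in 16.7% of members against 7.24% of all windows. The NOBOX-type letters TAATTG are in neither printed window and in 8.15% of all windows. The TTCCCGC and CACGTG matches of Slc25a31 share no base, and a match is a description of letters only.

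Slc25a3, the phosphate carrier (ENSMUSG00000061904.12, chromosome 10, 91116574 to 91124059, minus strand), measured 56.3 and 68.4 TPM in GV, 48.7 and 35.3 TPM in MII, 556 and 389 TPM in ESC, with 598 and 280 TPM in EpiC. Every oocyte library lay below every ESC and EpiC library. It was lower in GV than in ESC by −2.76 ± 0.39 (adjusted p = 0.000355) and in MII than in EpiC by −2.15 ± 0.38 (adjusted p = 0.000918), and both calls held in all 18 settings. MII against GV gave 0.53 ± 0.36 (adjusted p = 0.284), although both MII values in TPM lay below both GV values, with a log2 ratio of the means of −0.57.

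The gene has a pair of alternative exons of which a coding transcript carries one. The longer one, exon A, is known from heart and muscle, and the shorter one, exon B, from most tissues. They are printed because they encode the part in which the protein forms differ. Both are coding sequence from GENCODE M21 transcripts on GRCm38, minus strand, 5′ to 3′, and capitals mark bases that differ in, or are missing from, the aligned other exon.
Slc25a3 exon A, chr10:91122207-91122331: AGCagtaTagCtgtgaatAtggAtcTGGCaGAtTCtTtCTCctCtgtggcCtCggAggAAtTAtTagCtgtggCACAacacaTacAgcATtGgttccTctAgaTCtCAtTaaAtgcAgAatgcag
Slc25a3 exon B, chr10:91121922-91122043: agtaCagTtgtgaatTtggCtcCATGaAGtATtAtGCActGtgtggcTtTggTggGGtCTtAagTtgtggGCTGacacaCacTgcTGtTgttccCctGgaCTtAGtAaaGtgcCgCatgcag
Exon A has 125 bases and exon B 122, of which 77 are equal in the alignment. The exon A transcript Slc25a3-002 made up 0% and 2.05% of the TPM of the 3 coding transcripts in GV, 8.1% and 5.64% in MII, 5.53% and 21.8% in ESC, with 1.81% and 21.5% in EpiC. Exon B transcripts thus made up most of the coding TPM in every library, and the replicates of ESC and of EpiC differed too much to order the groups.

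Exon B is carried by Slc25a3-001 (8 exons, 91116574 to 91124059) and Slc25a3-004 (7 exons, 91116808 to 91123955), whose annotated 5′ and 3′ ends both differ. Slc25a3-001 measured 4.59 and 7.58 TPM in GV, 1.69 and 0.82 in MII, 197 and 122 in ESC, with 256 and 93.5 in EpiC. Slc25a3-004 measured 30.6 and 32.6 TPM in GV, 25.6 and 18 in MII, 148 and 56.9 in ESC, with 132 and 40.9 in EpiC. Slc25a3-001 made up 4.35% to 18.9% of the exon B TPM in the oocyte libraries and 57.1% to 69.6% in the others, ranges that do not overlap. In an edgeR model of all transcripts, Slc25a3-001 was lower in GV than in ESC by −3.67 ± 0.6 (adjusted p = 0.00471). Slc25a3-004 gave −0.66 ± 0.57 (adjusted p = 0.374), although both its GV values in TPM lay below both its ESC values. The transcript model has its own TMM factors, so its fold changes are not on the scale of the gene model. In the transcript model 16.7% of 69656 transcripts were called lower and 19.2% higher. The difference between these transcripts was not tested.

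Across the tested members, GV against ESC called 11 higher and 19 lower of 46, 23.9% and 41.3%. Of all tested genes, 28.3% were higher and 31.3% lower. The members' median log2 fold change was −0.77, against −0.51 for all tested genes. MII against EpiC called 15 higher and 18 lower, 32.6% and 39.1%, beside 28.5% and 39.6% of all genes, with a median of −0.23 against −1.23. With Slc25a41 at its bound, given below, that median was −0.22. The 2 comparisons share no library. The members called higher in both numbered 9 (19.6% of those tested) and those called lower in both 11 (23.9%), beside 19.8% and 23.9% of all tested genes. Slc25a40 was lower in GV than in ESC and higher in MII than in EpiC, and Slc25a23 went the opposite way.

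MII against GV called 16 members higher and 7 lower, 34.8% and 15.2%, where 17.4% of all tested genes were higher and 22.2% lower. The median was 0.58 for members and −0.53 for all genes. By log2(TPM + 1) with limma the counts were 6 higher and 10 lower, so the balance of the 2 directions turned with the scale. Of the 16, 4 were called in all 18 settings, namely Slc25a16, Slc25a32, Slc25a38 and Slc25a40, and of the 7 lower, 6 were. EpiC against ESC called 1 member higher and 0 lower by edgeR, 2.17% and 0%, where 2.63% of all genes were higher and 2.83% lower. At an unadjusted p under 0.05, edgeR had 3 members higher and 6 lower. DESeq2 called 3 and 4, and limma 2 and 2.

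**Figure D3:**
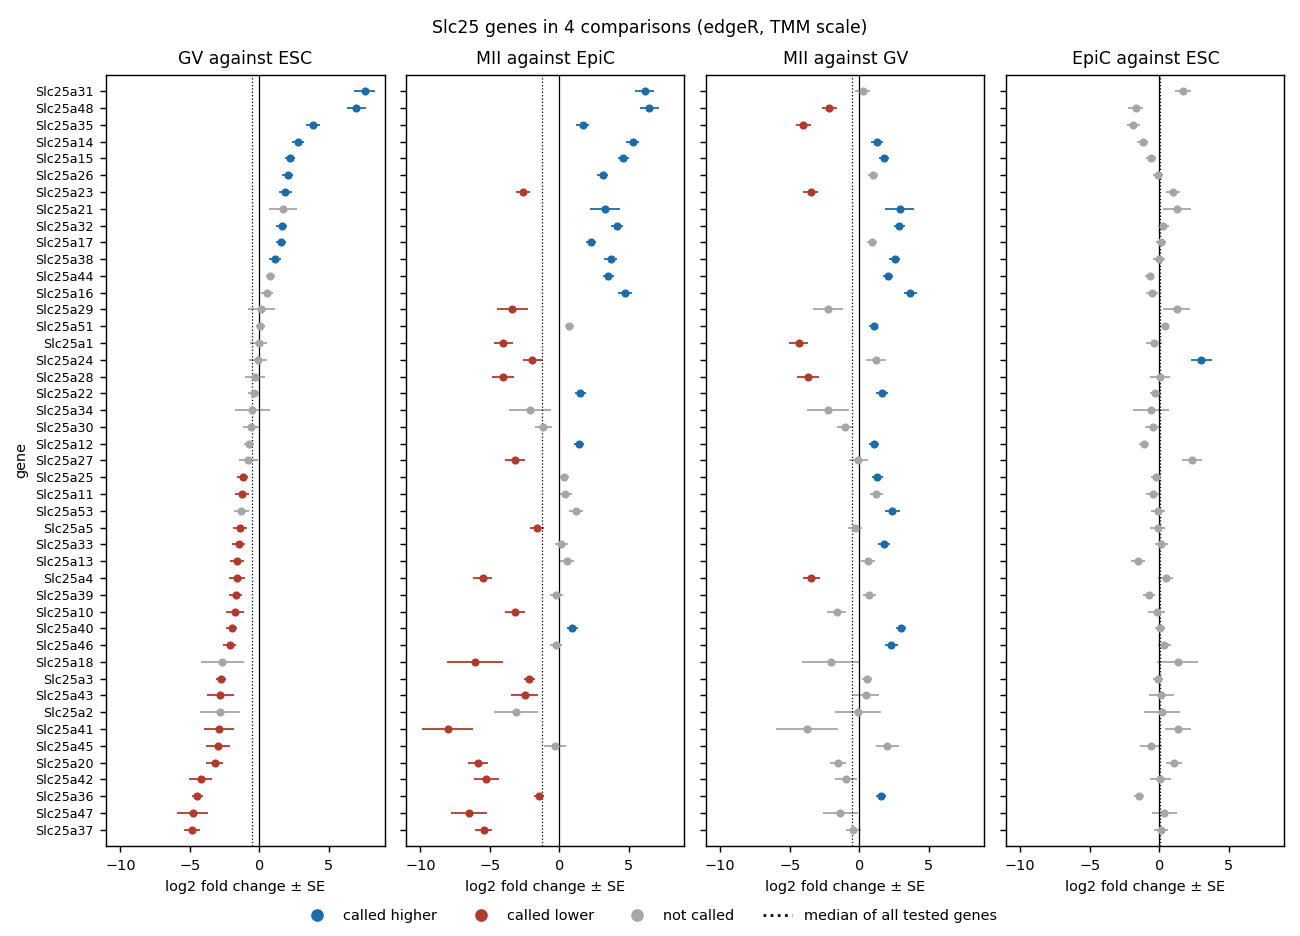
Log2 fold change ± SE of 45 Slc25 genes in 4 comparisons, from edgeR on TMM-scaled counts, ordered by GV against ESC. Blue points were called higher, red lower and grey not called, and the dotted line is the median of all tested genes. EpiC against ESC has 1 coloured point, Slc25a24.

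The ATP-Mg/phosphate carriers set the adenine nucleotide content of the matrix and bind calcium, Slc25a41 being the short form that lacks the calcium-binding part. Slc25a24 (ENSMUSG00000040322.10, chromosome 3, 109123149 to 109168457) measured 0.179 and 0.762 TPM in GV, 0.497 and 0.501 in MII, 0.655 and 0.641 in ESC, with 6.49 and 4.34 in EpiC. EpiC exceeded all other libraries, with a log2 fold change of 3.03 ± 0.73 (adjusted p = 0.045) over ESC. That call was lost without either MII, ESC or EpiC replicate, 1 at a time, at 2.85 to 3.18, with an adjusted p of up to 0.253 over the settings. Slc25a23 measured 13.1 and 14.1 TPM in GV, 0.36 and 0.807 in MII, 5.38 and 5.69 in ESC, with 14.7 and 7.69 in EpiC.

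Slc25a23 was thus lowest in MII. It fell from GV to MII by 3.51 on the log2 scale (−3.51 ± 0.52, adjusted p = 0.000908), in all 18 settings. Slc25a25 measured 4.45 to 6.4 TPM in oocytes and 13 to 14.9 TPM in ESC and EpiC. It was called lower in GV than in ESC (−1.2 ± 0.38, adjusted p = 0.0211), a call lost in 7 of 18 settings, with −0.8 without GV replicate 1. Its call as higher in MII than in GV (1.29 ± 0.38, adjusted p = 0.0226) went with overlapping TPM and was lost in 6 settings, with 0.02 by log2(TPM + 1) and −0.08 with TPM rescaled over protein-coding transcripts. Slc25a41 was at 0 counts in both MII libraries and at 0.665 and 0.353 TPM in EpiC, at least 4.63-fold lower in MII against a floor of 3 counts per library.

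Among the carriers of carboxylates, aspartate and glutamate, Slc25a1, the citrate carrier that feeds cytosolic acetyl-CoA (ENSMUSG00000003528.14, chromosome 16, 17925223 to 17928219), measured 55.4 and 70 TPM in GV but 0.859 and 1.8 TPM in MII. In ESC it measured 95.9 and 44.1 TPM and in EpiC 81.6 and 25.9 TPM. It fell from GV to MII by 4.36 on the log2 scale (−4.36 ± 0.68, adjusted p = 0.00113) and was lower in MII than in EpiC by −4.02 ± 0.67 (adjusted p = 0.000681), both in all 18 settings. GV against ESC gave −0.05 ± 0.59 (adjusted p = 0.94). Protein-coding transcripts held 34.4% of its TPM in GV and 55.7% in ESC.

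Slc25a13, the liver-type aspartate/glutamate carrier citrin, measured 25.4 and 19.5 TPM in GV, 19 and 11.7 in MII, 87.9 and 39.8 in ESC, with 32.2 and 12.6 in EpiC. Its GV against ESC value of −1.61 ± 0.5 (adjusted p = 0.02) was lost without GV replicate 1 (−1.42), GV replicate 2 (−1.52), MII replicate 1 (−1.33) or ESC replicate 1 (−0.95), with an offset for length (−1.21) and by log2(TPM + 1) (−1.37). Its muscle and brain relative Slc25a12 measured 13.2 and 13.3 TPM in GV and 8.89 and 9.46 in MII, so its TPM went down where the count model called it higher (1.06 ± 0.35, adjusted p = 0.0365), a call lost in 13 of 18 settings that turned to −0.49 by log2(TPM + 1). The same held for MII against EpiC, called higher at 1.42 ± 0.35 (adjusted p = 0.00596) with EpiC at 11.8 and 10 TPM, and at −0.22 by log2(TPM + 1). Protein-coding transcripts held only 3.59% to 5.61% of its TPM by group, the rest being transcripts annotated as noncoding. Slc25a10, the dicarboxylate carrier, was below 4.1 TPM in oocytes and between 5.52 and 14.5 TPM in ESC and EpiC, and it was called lower in both oocyte comparisons. The call in GV against ESC was lost in 5 settings, with −0.98 without GV replicate 1.

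Slc25a11, the oxoglutarate carrier, measured 10.3 and 19.4 TPM in GV and 47.3 and 34.9 TPM in ESC, and was called lower in that comparison (−1.25 ± 0.49, adjusted p = 0.0495). The call was lost in 12 of 18 settings, with −0.63 without GV replicate 1 and an adjusted p of up to 0.394. The glutamate carrier Slc25a22 was called higher in MII against GV (1.65 ± 0.42, adjusted p = 0.0123), with TPM of 9.82 and 14.1 in GV and 13.4 and 21.5 in MII that overlap. That call was lost in 5 settings, without GV replicate 1 (1.43), GV replicate 2 (1.74) or MII replicate 2 (1.27) and in both fits on TPM (0.49 and 0.34). Slc25a21, the oxoadipate carrier, stayed at 1.15 TPM or less in all libraries and was called higher in MII than in GV (2.9 ± 1.03, adjusted p = 0.0495), with 0.357 and 0.358 TPM in GV and 1.15 and 0.947 TPM in MII. That call was lost without any 1 of the 4 oocyte libraries (2.7 to 2.99) and with a length offset (2.71). Slc25a18 reached 2.91 TPM in EpiC replicate 2 and 1.17 TPM in ESC replicate 2 and at most 0.202 TPM in the other 6 libraries.

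The carriers of amino acids and related compounds included the most abundant member in MII, Slc25a15, and the member next to Slc25a31 by fold over ESC. Slc25a48, a carrier linked to choline (ENSMUSG00000021509.5, chromosome 13, 56438355 to 56474239, plus strand), measured 94.6 and 91.9 TPM in GV and 7.52 and 10.7 TPM in MII. It measured 0.668 and 1.16 TPM in ESC and 0.138 and 0.376 TPM in EpiC. The groups formed 3 steps without overlap between GV, MII and the cultured cells. The log2 fold change was 6.97 ± 0.68 (adjusted p = 5.08e-05) for GV against ESC, 6.48 ± 0.67 (adjusted p = 4.41e-05) for MII against EpiC, and −2.18 ± 0.54 (adjusted p = 0.011) for MII against GV. The fall from GV to MII missed the threshold without MII replicate 1 (−2.02, adjusted p = 0.0678).

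Slc25a15, the ornithine carrier of the urea cycle and polyamine supply, measured 111 and 89.2 TPM in GV, 161 and 153 in MII, 32.5 and 21 in ESC, with 23.7 and 12.2 in EpiC. Both oocyte groups lay above both cultured groups, by 2.21 ± 0.37 (adjusted p = 0.000929) for GV against ESC and 4.61 ± 0.41 (adjusted p = 2.15e-05) for MII against EpiC. The rise from GV to MII (1.81 ± 0.36, adjusted p = 0.00369) was not called on either TPM scale, at 0.65 and 0.51. Slc25a38, the glycine carrier of haem synthesis, measured 26.6 and 46.5 TPM in GV, 83.1 and 108 in MII, 23.2 and 32.6 in ESC, with 25.6 and 24 in EpiC.

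MII thus held the most Slc25a38, with 2.54 ± 0.42 over GV (adjusted p = 0.00146) in all 18 settings. Slc25a44, a carrier of branched-chain amino acids, measured 17.3 and 19.1 TPM in GV, 34.48 and 34.52 in MII, 12 and 14.5 in ESC, with 7.59 and 8.53 in EpiC. It was called higher in MII than in GV (2.08 ± 0.35, adjusted p = 0.00144) and than in EpiC (3.53 ± 0.37, adjusted p = 4.57e-05). The basic amino acid carriers Slc25a2 and Slc25a29 stayed below 1 TPM in every library.

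Slc25a20 carries acylcarnitines into the matrix for fatty acid oxidation (ENSMUSG00000032602.6, chromosome 9, 108662088 to 108684641, plus strand). Summed over its transcripts it measured 14.3 and 14.5 TPM in GV, 2.13 and 2.31 in MII, 124 and 153 in ESC, with 101 and 325 in EpiC. The sums combine transcripts with different patterns. The coding transcript Slc25a20-001, of 9 exons, measured 12.99 and 14 TPM in GV, 2.1 and 2.24 in MII, 89.5 and 71.7 in ESC, and only 8.43 and 7.43 in EpiC. The unspliced Slc25a20-003 measured 1.26 and 0.37 TPM in GV, 0.02 and 0.07 in MII, 34.4 and 79.6 in ESC, with 92.4 and 317 in EpiC.

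The coding transcript made up 90.8% to 98.8% of the gene's TPM in the oocyte libraries, 72% and 46.9% in ESC, and 8.36% and 2.29% in EpiC. In EpiC most TPM of the gene thus lay on a transcript without the coding exons 2 to 9. Slc25a20-003 is a single exon of 2751 bases from 108662088 to 108664838, of which 2506 bases (91.1%) lie in intron 1 of Slc25a20-001, an intron of 7433 bases. The place where the transcripts part is printed, from GENCODE M21 on GRCm38, plus strand, with the last 30 bases of exon 1 in lower case and the 30 bases that follow in capitals.
Slc25a20-001, joined to exon 2: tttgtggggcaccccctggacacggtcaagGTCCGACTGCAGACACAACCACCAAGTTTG
Slc25a20-003, chr9:108662303-108662362, running into intron 1: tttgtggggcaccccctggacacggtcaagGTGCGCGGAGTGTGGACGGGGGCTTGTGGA

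Tested on all its transcripts, Slc25a20 gave 1.07 ± 0.57 for EpiC against ESC (adjusted p = 0.399). On protein-coding transcripts alone the value was −3.29 (adjusted p = 0.00233). In the transcript model, fitted after the values had been seen, Slc25a20-001 fell by 3.32 on the log2 scale (−3.32 ± 0.42, adjusted p = 0.0486), where 0.089% of transcripts were called lower and 0.0517% higher. Slc25a20-003 gave 1.93 ± 0.9 (adjusted p = 0.648), its replicates being far apart. Within each of ESC and EpiC its higher value was in replicate 2, the library with 14.7% and 22.7% of counts on Gm42418, whose part in it was not tested. The coding transcript was lower in both EpiC libraries than in both ESC libraries. GV against ESC was −3.22 ± 0.61 (adjusted p = 0.00184) for the gene in the gene model. The transcript model gave −1.57 ± 0.39 (adjusted p = 0.0205) for Slc25a20-001 and −5.21 ± 1.04 (adjusted p = 0.0099) for Slc25a20-003. The 2 models have separate TMM factors, so these sizes are not on one scale. In TPM, Slc25a20-001 was at 12.99 and 14 in GV beside 89.5 and 71.7 in ESC. MII against EpiC was −5.85 ± 0.7 (adjusted p = 9.32e-05) for the gene and −0.63 (adjusted p = 0.11) on protein-coding transcripts.

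**Figure D4:**
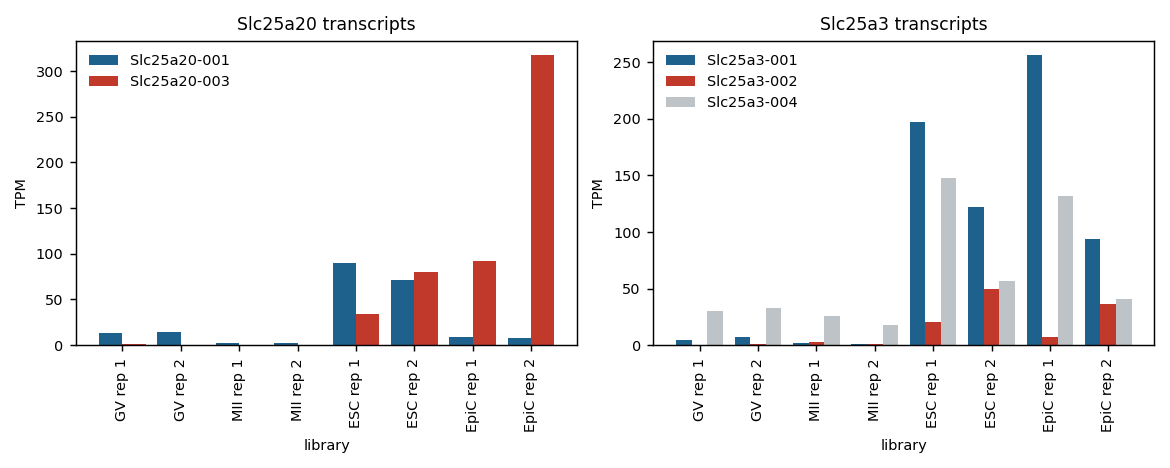
TPM of transcripts of Slc25a20 (left) and Slc25a3 (right) in each of the 8 libraries. Slc25a20-001 is at 71.7 to 89.5 TPM in ESC and 7.43 to 8.43 TPM in EpiC, while Slc25a20-003 is higher in EpiC, and Slc25a3-004 exceeds Slc25a3-001 in the oocyte libraries only.

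Of 9 tested carriers of nucleotides and cofactors, 5 were called higher in MII than in GV, where 17.4% of all tested genes were. Of these, Slc25a33, Slc25a36 and Slc25a51 lost the call in both fits on TPM. Slc25a16, linked to coenzyme A, measured 14.9 and 9 TPM in GV, 84.1 and 45.9 in MII, 10.6 and 9.12 in ESC, with 9.31 and 5.05 in EpiC. MII alone was high, with 3.66 ± 0.47 over GV (adjusted p = 0.00059) and 4.73 ± 0.49 over EpiC (adjusted p = 4.45e-05), in all 18 settings. Slc25a32, which carries folate and FAD, measured 19.9 and 14.2 TPM in GV, 65.3 and 47.7 in MII, 7.96 and 6.1 in ESC, with 12.1 and 5.46 in EpiC. It too was highest in MII, with 2.88 ± 0.4 over GV (adjusted p = 0.000729) in all 18 settings.

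Slc25a17, the peroxisomal carrier of CoA, NAD and FAD, measured 111 and 91.2 TPM in GV, 70.1 and 96.9 in MII, 37.5 and 48.9 in ESC, with 48.8 and 44.5 in EpiC. It was higher in GV than in ESC (1.54 ± 0.35, adjusted p = 0.00499), a call lost without ESC replicate 1 at an adjusted p of 0.0518. Slc25a26, which brings S-adenosylmethionine into the matrix, lay at 26.2 to 40.6 TPM in oocytes and 11.6 to 12.5 TPM in ESC and EpiC, and was called higher in both oocyte comparisons in all 18 settings.

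Slc25a36, a pyrimidine nucleotide carrier, showed the opposite order, at 5.1 and 2.64 TPM in GV, 5.67 and 4.06 in MII, 134 and 123 in ESC, with 45 and 39 in EpiC. It was lower in GV than in ESC by −4.47 ± 0.41 (adjusted p = 3.81e-05) and in MII than in EpiC by −1.49 ± 0.37 (adjusted p = 0.00585), both in all 18 settings. EpiC against ESC gave −1.45 ± 0.37 (adjusted p = 0.0535), and it was called lower in 8 of 18 settings at a like size, DESeq2 (adjusted p = 0.0118) and limma on log2(TPM + 1) (adjusted p = 0.0241) among them. The related Slc25a33 measured 2.57 to 5.15 TPM in oocytes and 7.53 to 16.2 TPM in ESC and EpiC.

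Slc25a42, a carrier of CoA and adenine nucleotides, measured 0.198 and 0.426 TPM in GV, 0.0895 and 0.0598 in MII, 4.91 and 12.8 in ESC, with 4.67 and 12.7 in EpiC. It was near 0 in oocytes, lower by −4.23 ± 0.84 (adjusted p = 0.0024) in GV than in ESC and by −5.26 ± 0.91 (adjusted p = 0.000815) in MII than in EpiC. Slc25a51, the NAD carrier, was the most even of the group, at 17.6 to 29.3 TPM in all libraries, and its call as higher in MII than in GV (1.05 ± 0.32, adjusted p = 0.0282) went with lower TPM in MII, was lost in 9 of 18 settings and turned to −0.15 by log2(TPM + 1).

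The mitoferrins Slc25a28 and Slc25a37 bring iron into the matrix. Slc25a28 measured 10.9 and 17.9 TPM in GV, 0.122 and 0.836 in MII, 21.2 and 24.2 in ESC, with 20.9 and 24.8 in EpiC. It fell from GV to MII by 3.67 on the log2 scale (−3.67 ± 0.79, adjusted p = 0.00544) in all 18 settings. Slc25a37, the form of developing red cells, measured 0.142 and 0.384 TPM in GV, 0.0688 and 0.0762 in MII, 8.62 and 8.96 in ESC, with 11.5 and 7.01 in EpiC. It was lower in GV than in ESC by −4.86 ± 0.59 (adjusted p = 0.000164) and in MII than in EpiC by −5.45 ± 0.62 (adjusted p = 7.43e-05), but protein-coding transcripts held 5.89% of its TPM in ESC, and on those alone GV against ESC was −1.7 and not called. For Slc25a37, MII against GV gave −0.45 ± 0.54 (adjusted p = 0.546).

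Slc25a39 and Slc25a40 are the glutathione carriers. Slc25a39 measured 35.1 and 48.7 TPM in GV, 20.5 and 36.9 in MII, 215 and 132 in ESC, with 143 and 66.8 in EpiC. Slc25a40 measured 5.6 and 3.45 TPM in GV, 16.2 and 13.8 in MII, 18.5 and 21.6 in ESC, with 22.7 and 17.8 in EpiC. Slc25a40 was higher in MII than in GV (3 ± 0.39, adjusted p = 0.000629) in all 18 settings. Slc25a39 gave 0.72 ± 0.46 (adjusted p = 0.246) with a log2 ratio of mean TPM of −0.55, and the difference between these genes was not tested. Slc25a40 made up 13.7% and 6.62% of their joint TPM in GV and 44.1% and 27.2% in MII. Its call as higher in MII than in EpiC (0.94 ± 0.37, adjusted p = 0.0457) turned to −0.41 by log2(TPM + 1) and was lost without either MII, ESC or EpiC replicate, at 0.84 to 1.1. Both MII values in TPM lie below both EpiC values.

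Slc25a14, Slc25a27 and Slc25a30 are relatives of the uncoupling proteins. Slc25a14 measured 32.7 and 27.7 TPM in GV, 38.5 and 26.9 in MII, 6.74 and 4.65 in ESC, with 3.27 and 1.55 in EpiC. Both oocyte groups lay above both cultured groups, by 2.8 ± 0.43 (adjusted p = 0.000569) for GV against ESC and 5.28 ± 0.48 (adjusted p = 2.34e-05) for MII against EpiC, in all 18 settings. Its call as higher in MII than in GV (1.28 ± 0.41, adjusted p = 0.032) went with overlapping TPM. It was lost without either GV replicate (1.26 and 1.18), MII replicate 1 (0.94) or ESC replicate 1 (1.27), and turned to −0.03 with TPM rescaled over protein-coding transcripts. Slc25a27 measured 3.39 and 5.02 TPM in EpiC and at most 1.24 TPM in the other libraries, and Slc25a30 measured 0.518 to 9.83 TPM.

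Members with less certain substrates were mostly low. Slc25a35 was the exception in GV, at 36 and 33.3 TPM, beside 0.395 and 1.2 in MII, 3.51 and 2.18 in ESC, with 0.861 and 0.714 in EpiC. It fell from GV to MII by 4.04 on the log2 scale (−4.04 ± 0.53, adjusted p = 0.000629) and was higher in GV than in ESC by 3.85 ± 0.52 (adjusted p = 0.000291), both in all 18 settings. Its call as higher in MII than in EpiC (1.67 ± 0.49, adjusted p = 0.0138) went with overlapping TPM, turned to −0.03 by log2(TPM + 1) and was lost without MII replicate 2 (0.89) or EpiC replicate 2 (1.62). Slc25a34, Slc25a43, Slc25a45, Slc25a47 and Slc25a53 stayed at 7.16 TPM or less, and Slc25a43, Slc25a45 and Slc25a47 were called lower in GV than in ESC. Slc25a46, an outer membrane protein that shapes mitochondria, measured 1.17 to 4.45 TPM in oocytes and 7.82 to 16.5 TPM in ESC and EpiC, and was lower in GV than in ESC (−2.15 ± 0.46, adjusted p = 0.00332) in all 18 settings.

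The contrast of the 2 transitions, the MII against GV change minus the EpiC against ESC change, tests whether a member moved differently in them. It called 13 members higher and 7 lower, 28.3% and 15.2%, beside 13.2% and 16.4% of all genes. By log2(TPM + 1) these counts were 5 and 12, and of all called genes 25.3% were higher in place of 44.6%. Slc25a16 (4.19 ± 0.62, adjusted p = 0.00232), Slc25a36 (2.99 ± 0.52, adjusted p = 0.00366) and Slc25a40 (2.94 ± 0.53, adjusted p = 0.00408) were higher in every one of 17 settings. Slc25a1 (−3.96 ± 0.87, adjusted p = 0.00914), Slc25a4 (−3.89 ± 0.8, adjusted p = 0.00703) and Slc25a23 (−4.5 ± 0.7, adjusted p = 0.00264) were lower in every one.

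Newly made carrier proteins reach the inner membrane through import receptors, small chaperones between the membranes and the TIM22 complex. Of 11 measured import genes, 1 was higher and 10 were lower in MII than in GV, 3 higher and 4 lower in GV than in ESC, and 1 higher and 9 lower in MII than in EpiC. Of all tested genes, 17.4% and 22.2%, 28.3% and 31.3%, and 28.5% and 39.6% were called in these directions. The import genes' median log2 fold changes were −2.35, −1.02 and −3.33, beside −0.53, −0.51 and −1.23 for all tested genes. By limma on log2(TPM + 1) the counts were 0 and 10, 3 and 7, and 1 and 10. In EpiC against ESC edgeR called 0 of 11 in each direction, with 0 at an unadjusted p under 0.05, and DESeq2 and limma also called 0. Timm9, a chaperone that escorts carriers, measured 522 and 589 TPM in GV, 9.13 and 19.7 in MII, 31.9 and 30.7 in ESC, with 48.5 and 37.6 in EpiC. Tomm40, the channel of the outer membrane, measured 28.6 and 55.8 TPM in GV and 0.153 and 1.33 in MII, and fell by 4.42 on the log2 scale (−4.42 ± 0.82, adjusted p = 0.0024).

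Timm9 fell by 4.11 from GV to MII (−4.11 ± 0.45, adjusted p = 0.000522), whereas Timm8b rose (1.4 ± 0.32, adjusted p = 0.00697), from 277 and 275 to 342 and 312 TPM, a rise that limma on log2(TPM + 1) did not call. Among relatives of the carriers, 0 of 4 tested genes were higher and 3 were lower in GV than in ESC, 0 and 4 in MII against EpiC, and 0 and 2 in MII against GV. In these comparisons 0 were higher at an unadjusted p under 0.05, by DESeq2 or by limma. In EpiC against ESC edgeR called 0 of 4 in each direction, with 1 higher and 0 lower at an unadjusted p under 0.05 and 0 by DESeq2 or limma. Of all tested genes, edgeR called 28.3% higher and 31.3% lower in GV than in ESC. The shares were 28.5% and 39.6% in MII against EpiC and 17.4% and 22.2% in MII against GV. In EpiC against ESC they were 2.63% and 2.83%. Mtch2, an outer membrane insertase, measured 10.7 and 10.3 TPM in GV, 1.04 and 1.31 in MII, 214 and 115 in ESC, with 172 and 54.1 in EpiC. Mtch1 measured 39 and 60.2 TPM in GV, 1.55 and 3.42 in MII, 104 and 92.6 in ESC, with 231 and 186 in EpiC, and fell by 3.28 from GV to MII (−3.28 ± 0.43, adjusted p = 0.000642). Ucp2, an uncoupling protein found in many tissues, measured 1.68 and 17 TPM in GV and 0.56 and 0.933 TPM in MII. It measured 98.1 and 50.7 TPM in ESC and 58.4 and 23.1 TPM in EpiC. Its high GV library, replicate 2, was also the one with more of the cumulus and granulosa markers (165 against 32.4 TPM), and their part in it was not tested.

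Of 18 other mitochondrial transport genes, such as the porins and the calcium uniporter, 7 were higher and 8 lower in MII than in GV, 5 and 6 in GV than in ESC, 4 and 8 in MII than in EpiC, and 1 and 1 in EpiC than in ESC. By limma on log2(TPM + 1) these counts were 3 and 8, 6 and 6, 3 and 11, and 0 and 3, so the balance in the MII comparisons moved with the scale. Of 9 genes of mitochondrial biogenesis, 1 was higher and 3 were lower in MII than in GV, 2 and 3 in GV than in ESC, and 1 and 5 in MII than in EpiC, and by limma on log2(TPM + 1) 1 and 6, 2 and 4, and 1 and 6. In EpiC against ESC it was 0 of 9 in each direction by edgeR, adjusted or not, and by DESeq2 and limma. Beside both lists, edgeR called 17.4% of all tested genes higher and 22.2% lower in MII than in GV. The shares were 28.3% and 31.3% in GV against ESC and 28.5% and 39.6% in MII against EpiC. In EpiC against ESC they were 2.63% and 2.83%. Vdac3, a porin of the outer membrane, measured 431 and 354 TPM in GV, 14.6 and 13.8 in MII, 258 and 117 in ESC, with 219 and 69.4 in EpiC. Tfam, which packages mitochondrial DNA, measured 29 and 15.1 TPM in GV, 0.299 and 2.38 in MII, 75.3 and 71.4 in ESC, with 102 and 66.9 in EpiC. Both were lowest in MII, with −3.63 ± 0.54 (adjusted p = 0.00089) for Vdac3 and −3.59 ± 0.72 (adjusted p = 0.00351) for Tfam against GV. Other genes of these lists rose in TPM from GV to MII. The porin Vdac1 went from 45.95 and 65.5 to 105 and 119 TPM. Mcu, the calcium uniporter, went from 40.35 and 62.4 to 276 and 241 TPM, and Tfb2m of the biogenesis list from 16.9 and 9.87 to 59.85 and 50 TPM.

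The exons of 12 members overlap exons of a gene on the opposite strand, Slc25a23, Slc25a25, Slc25a33, Slc25a35 and Slc25a37 among them. The kit was stranded per the labels, but the sources used here do not say whether strand was used in counting, so reads of these pairs cannot be told apart.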

How the data were processed

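The authors deposited, per library, a table of estimated counts, TPM and effective lengths for 117667 transcripts, made with kallisto 0.43 on mm10 per the submitters' processing notes. TPM in these deposited tables is relative to all listed transcripts. RNA was extracted with TRIzol for stranded paired-end libraries, per the labels. The sources used here do not state a poly(A) selection.

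Transcripts' estimated counts were added up by gene, rounded, filtered with filterByExpr (25045 genes left) and scaled by TMM. A quasi-likelihood model of edgeR 4.0.16 in R 4.3.3, with 1 mean per group over 8 libraries and 4 residual degrees of freedom, gave the contrasts, with Benjamini-Hochberg adjustment over all genes and a threshold of 0.05. Each SE was derived from the log2 fold change and its F statistic, and is approximate. Fold changes of limma 3.58.1 are on the log2(TPM + 1) scale (pseudocount 1), which understates changes of low genes. DESeq2 1.42.0 was an alternative. A transcript model of the same kind, with its own TMM factors, and a fit without Gm42418 and mitochondrially encoded genes were added after the values were seen. The scripts were tested on simulated data.

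The counting depth per library, 47463546 to 196788239, limits low genes, and floors cover counting error only. All 47 members matched GENCODE M21 on GRCm38. Members, lists and alternatives were chosen with earlier results of these data known. Per-library values are given for the ADP/ATP and phosphate carriers, members with a mean of at least 50 TPM in a group, and the 4 highest and 4 lowest called members of each comparison with at least 5 TPM in either group, while other members were named by role. Lists not described are fibroblast markers (2.3 to 8.95 TPM summed) and blood markers (2.6 to 36.2 TPM). The values of 1 tested member are not reported here, although it enters the counts over all members.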

Additional observations from a re-analysis of the deposited data

Results flagged for a closer look

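The MII against GV change and the EpiC against ESC change of 19 members differed in the test of the difference itself (edgeR, adjusted over all genes), given here as the first minus the second in log2. It was positive for Slc25a16 (4.19), Slc25a36 (2.99), Slc25a40 (2.94), Slc25a44 (2.76), Slc25a32 (2.59), Slc25a38 (2.56), Slc25a14 (2.48), Slc25a53 (2.48), Slc25a15 (2.4), Slc25a13 (2.18), Slc25a12 (2.17), Slc25a22 (1.93) and Slc25a46 (1.92). It was negative for Slc25a23 (−4.5), Slc25a1 (−3.96), Slc25a4 (−3.89), Slc25a28 (−3.72), Slc25a20 (−2.63) and Slc25a35 (−2.18). The median of all tested genes was −0.69. The value of Slc25a20 turned to 1.75 on protein-coding transcripts. The call was lost in 10 of 17 settings for Slc25a20, 9 for Slc25a53, 8 each for Slc25a13, Slc25a22 and Slc25a46, and 7 for Slc25a35. Only Slc25a16, Slc25a36, Slc25a40, Slc25a1, Slc25a4 and Slc25a23 were called in every setting. By log2(TPM + 1) more members were called lower than higher, as given with the contrast above.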

How the results depend on the processing

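Of 178 counts of members under 18 alternatives, 135 were within 1.5 times the reported count and 43 were not. Of 3998 values of 45 tested members, 3613 kept their side of the threshold, 240 lost the call, 123 gained it and 22 changed sign with a call on at least 1 side. Members called higher in EpiC than in ESC numbered 3 by DESeq2, 3 without a count filter, 2 by limma on log2(TPM + 1), 3 with TPM rescaled over protein-coding transcripts and 2 with the replicate block. Those called lower there numbered 1 with RLE scaling, 4 by DESeq2, 4 without a count filter, 2 on protein-coding transcripts, 1 with a length offset, 2 and 3 by the 2 limma fits and 4 with the replicate block. For MII against GV the 2 limma fits gave 6 and 6 higher, and the rescaled one 11 lower. For the difference of the 2 transitions they gave 5 and 3 higher and 12 and 12 lower. Leaving out 1 library at a time gave 0 to 1 higher and 0 to 1 lower in EpiC against ESC, 9 to 16 higher and 6 to 9 lower in MII against GV (9 without GV replicate 1 or GV replicate 2, 10 without MII replicate 1), and 8 to 12 higher and 8 to 18 lower in GV against ESC. The last was 8 without GV replicate 1, 11 without GV replicate 2, 12 without MII replicate 1, 10 without ESC replicate 1 and 12 without ESC replicate 2. MII against EpiC kept 11 to 17 higher and 14 to 18 lower, and the difference 9 to 13 and 3 to 7, its lower count being 3 without GV replicate 2, ESC replicate 1 or EpiC replicate 2 and 4 without MII replicate 1 or ESC replicate 2. Where a group was left with 1 library, it was assumed to vary like the others. Signs changed for Slc25a20 in EpiC against ESC (−3.29 on protein-coding transcripts, −3.15 with rescaled TPM) and in the difference (1.75 and 0.73), and for Slc25a53 in GV against ESC (1.6 on protein-coding transcripts). In MII against GV the 2 limma fits changed the sign of Slc25a12 (−0.49 and −0.26) and Slc25a51 (−0.15 and −0.3), and the rescaled one that of Slc25a14 (−0.03) and Slc25a25 (−0.08). In MII against EpiC they changed that of Slc25a12 (−0.22 and −0.46), Slc25a25 (−1.28 and −1.21), Slc25a33 (−1.11 and −1.42), Slc25a35 (−0.03 and −0.01) and Slc25a40 (−0.41 and −0.09), and the rescaled one that of Slc25a11 (−1.2). The cause was not tested, except that protein-coding fits leave out Slc25a20-003. Without Gm42418 and the mitochondrially encoded genes, an alternative chosen after seeing the data, 17 members were lower in GV than in ESC, and the counts of the other comparisons equalled the reported ones. RLE scaling shifted all genes by a median of 0.21 in MII against GV and 0.19 in MII against EpiC. Same-numbered libraries deviated together in ESC and EpiC (correlation 0.712) and in GV and MII (0.31), and at −0.015 to 0.014 otherwise. The labels state no pairing, so the block is not used in the report. It moved the counts of the other comparisons by less than 1.5 times. Estimated counts carry an assignment error that these tables do not give, which touches the transcript values most.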

Other observations

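Some members are neighbours on the genome (GENCODE M21). Slc25a29 and Slc25a47 lie 162 bases apart on chromosome 12 and are read away from each other. That distance rests on the GENCODE start of Slc25a47 at 108836046, while its RefSeq promoter window lies at 108850879 to 108851178. Slc25a47 measured 1.65 and 3.43 TPM in ESC, 1.52 and 4.61 in EpiC and at most 0.106 TPM in oocytes, and Slc25a29 at most 0.913 TPM in any library. Slc25a41 and Slc25a23, ATP-Mg/phosphate carriers on chromosome 17, lie 2056 bases apart on the same strand, yet Slc25a41 stayed at 0.665 TPM or less where Slc25a23 reached 14.7 TPM. Slc25a54, at 0 counts throughout, lies 6461 bases from Slc25a24 on chromosome 3. Slc25a43 measured at most 2.69 TPM, 18448 bases from Slc25a5 on chromosome X, a member that reached 793 TPM.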
